A study of Mus musculus with 6 samples.

Results

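The genes described here are 10 inflammatory chemokines, Ccl2, Ccl3, Ccl4, Ccl5, Ccl7, Ccl12, Cxcl1, Cxcl2, Cxcl10 and Cxcl16, taken by gene symbol from the 56884 genes listed in each of 6 single-cell RNA-seq libraries. Their transcripts were summed, as unique molecular identifiers (UMIs, 1 per captured RNA molecule), per library and per cell type, where a cell type is a set of cell barcodes that passed a gate of marker genes. None of the 10 genes is among those markers. All 10 had at least 1 UMI in the cortex and Bdnf lung libraries, and 9 in the Hgf lung libraries, where Ccl12 had 0.

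The study deleted a secreted factor from mural cells of newborn mice and compared mutant with control tissue. In the cortex pair, Nodal lox/lox control and Nodal iPCKO cerebral cortex were taken at P12. In the lung pairs, Bdnf lox/lox or Hgf lox/lox control lungs and Bdnf iPCKO or Hgf iPCKO lungs were taken at P21, after CD45+ cells and erythrocytes had been depleted. The iPCKO mice carried the tamoxifen-inducible Pdgfrb(BAC)-CreERT2 transgene, which also recombines in vascular smooth muscle cells, and their controls carried the loxP-flanked alleles without it. All pups received 50 µg of tamoxifen daily from P1 to P3, and each library pooled cells of 2 mice whose sex the sources used here do not give. Meninges and myelin debris had been removed from the cortex, and the tissue was dissociated with enzymes at a warm temperature. With 1 library per group no spread between mice could be estimated, so no test was run, and every interval below is a 95% interval that covers counting error only.

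Chemokines are small secreted proteins that bind G protein-coupled receptors on leukocytes and direct their migration. CCL2, CCL7 and CCL12 are ligands of CCR2 and attract monocytes, CCL3 and CCL5 are ligands of CCR1, and CXCL1 and CXCL2 attract neutrophils through CXCR2. CXCL10 is an interferon-inducible ligand of CXCR3 on activated T and NK cells, and CXCL16 is made as a transmembrane protein that binds CXCR6. Microglia, the resident macrophages of the brain, are a known source of CC chemokines, and many genes of the family are targets of the transcription factor NF-kB.

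The genes lie in clusters. By the GRCm39 annotation, Ccl2 (chr11:81926397-81928279), Ccl7 (chr11:81936532-81938351) and Ccl12 (chr11:81992645-81994466) are neighbours on the plus strand, and Ccl5 (chr11:83416602-83425942, minus strand), Ccl3 (chr11:83538670-83540191, minus strand) and Ccl4 (chr11:83553383-83555509, plus strand) form a second group on the same chromosome. Cxcl16 (chr11:70344517-70352620, minus strand) stands alone. Cxcl1 (chr5:91039094-91040974) and Cxcl2 (chr5:91051730-91053797) are neighbours on the plus strand of chromosome 5, and Cxcl10 (chr5:92494497-92496748, minus strand) lies on the same chromosome.

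Promoters of 5 of the 10 genes were in the RefSeq table used here, whose build is GRCm38.p6. The 3 that held a match to an NF-kB type motif, those of Cxcl1, Cxcl2 and Cxcl10, are printed. Each line gives the 250 bases before the start of the gene in the direction of transcription, from chr5:90890995-90891244 (plus strand) for Cxcl1, chr5:90903649-90903898 (plus strand) for Cxcl2 and chr5:92348890-92349139 (minus strand) for Cxcl10. Capitals mark motif matches.
Cxcl1: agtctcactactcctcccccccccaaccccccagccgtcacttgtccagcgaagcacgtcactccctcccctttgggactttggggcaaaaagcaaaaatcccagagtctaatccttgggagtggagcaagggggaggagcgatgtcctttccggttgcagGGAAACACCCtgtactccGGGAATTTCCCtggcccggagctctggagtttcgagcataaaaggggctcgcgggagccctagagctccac
Cxcl2: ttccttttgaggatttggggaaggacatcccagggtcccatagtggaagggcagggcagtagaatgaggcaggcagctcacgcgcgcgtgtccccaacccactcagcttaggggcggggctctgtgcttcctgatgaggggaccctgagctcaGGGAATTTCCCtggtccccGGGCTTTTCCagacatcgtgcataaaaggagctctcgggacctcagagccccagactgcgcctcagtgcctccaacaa
Cxcl10: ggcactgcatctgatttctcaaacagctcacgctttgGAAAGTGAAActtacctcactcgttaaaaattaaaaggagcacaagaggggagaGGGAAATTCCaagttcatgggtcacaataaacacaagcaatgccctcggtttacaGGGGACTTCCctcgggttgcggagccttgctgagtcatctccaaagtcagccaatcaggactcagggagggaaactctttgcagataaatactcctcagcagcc

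The NF-kB type motif was searched as GGG, any 3 bases and TTCC, and the interferon-response (ISRE) type motif as GAAA, any 2 bases and GAAA, both on either strand. In the promoter of Cxcl1, GGAAACACCC lies at -89 to -80 and GGGAATTTCC at -71 to -62, and the latter overlaps its own reverse reading GGAATTTCCC at -70 to -61. Cxcl2 holds the same overlapping pair at -97 to -88 and -96 to -87, and GGGCTTTTCC at -78 to -69. Cxcl10 holds GGGAAATTCC at -159 to -150, GGGGACTTCC at -104 to -95 and the ISRE type match GAAAGTGAAA at -213 to -204. Of 32851 promoters of the same length, 4.65% hold the NF-kB type motif, 2.98% the ISRE type and 0.110% both, and Cxcl10 is one of the last. Neither motif occurs in these windows of Ccl3 and Ccl12. A match describes letters and is no measured binding site.

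The libraries held 33889545 to 186701379 UMIs and 3237 to 24311 barcodes above the UMI minimum, with 2841 to 7791.5 UMIs in the median barcode. Between 0.649% and 3.03% of the smaller library's barcodes recurred in another library, close to the number that barcodes drawn from 1 common list would share. The targeted gene followed the labels in 2 pairs. Nodal was at 113 CPM (counts-per-million, relative to all UMIs of the cell type) in control pericyte-like cells and had 0 UMIs in the 410 mutant ones, where the interval reaches 1.43 CPM, and Hgf was at 151 CPM in control and 27.3 CPM in mutant pericyte-like lung cells. Over all barcodes Bdnf was at 29.8 CPM in control and 27.5 CPM in mutant lungs, and the cells that passed the Bdnf lung pericyte gate had neuronal leading genes and were left unnamed, so that the deletion was not checked there.

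In the cortex, the largest source of these chemokines was the microglia-like cells, of which the control library held 874 and the Nodal iPCKO library 1410. All 14 of the microglial markers were detected in both libraries, with P2ry12, Siglech and P2ry13 among the leading genes beside the inflammatory genes Il1a and Ccl4. The median cell held 6140 UMIs in control and 6425 in mutant cortex. Summed over the 10 genes, the level was 8293 CPM in control and 13834 CPM in Nodal iPCKO microglia-like cells, and 96.7% and 98.0% of the cells held at least 1 chemokine UMI. A gene was counted as higher or lower when its CPM differed by more than 2-fold and at least 10 UMIs were found in both libraries together. A count of 0 was set to 3 UMIs for this rule and for the median ratios. By this rule 5 of the 10 chemokines (Ccl12, Ccl5, Cxcl2, Cxcl10 and Cxcl16) were higher in the mutant, against 4.79% of the 16768 genes with as many UMIs, and 0 were lower, against 5.86%. Among genes with at least 100 UMIs, 5 of 9 chemokines were higher, against 1.74% of all genes, and 0 were lower, against 0.938%. The median log2 ratio of mutant over control was 1.11 for the chemokines and -0.07 for all genes.

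**Figure D1:**
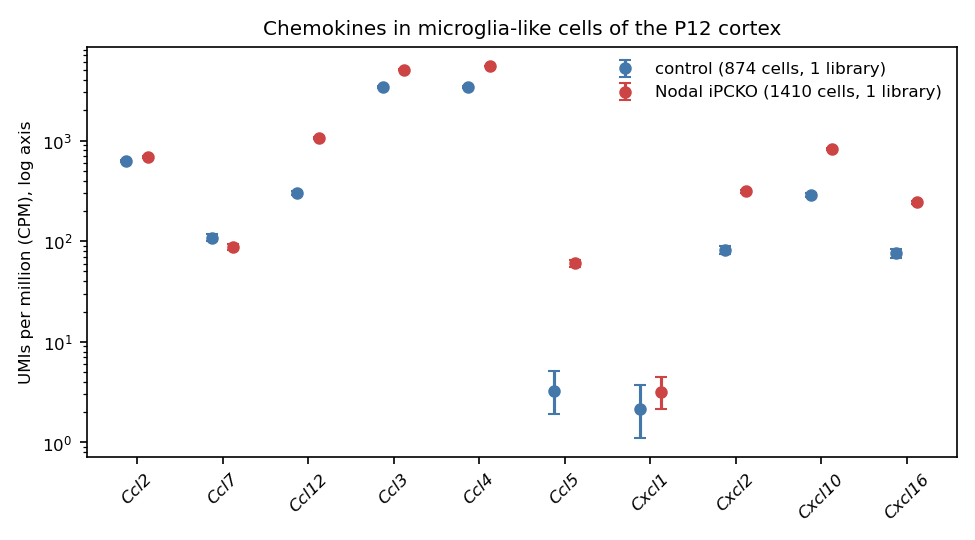
Level of each chemokine in microglia-like cells of the Nodal lox/lox control and the Nodal iPCKO cortex library, in CPM on a log axis, with exact Poisson 95% intervals that cover counting error only. Ccl3 and Ccl4 lie between 3396 and 5502 CPM, and the widest gap between the libraries is that of Ccl5, from 3.21 to 60.2 CPM.

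The CCR2 ligands did not move together. Ccl12 was at 303 CPM (1699 UMIs, interval 289 to 318) in control and 1054 CPM (10266 UMIs, 1034 to 1075) in mutant microglia-like cells, a log2 ratio of 1.80 (1.72 to 1.87) or 3.47-fold. Ccl2 was at 625 CPM (3502 UMIs) and 692 CPM (6736 UMIs), a log2 ratio of 0.14 (0.09 to 0.20). Ccl7 was at 108 CPM (607 UMIs) and 86.7 CPM (845 UMIs), a log2 ratio of -0.32 (-0.47 to -0.17). Thus 1 of the 3 ligands of the same receptor was past 2-fold, while the other two differed by less than 1.5-fold. The share of cells with a Ccl12 UMI was 58.2% (54.9 to 61.5) in the control and 80.5% (78.3 to 82.5) in the mutant. For Ccl2 the shares were 46.0% and 54.8%, and for Ccl7 15.2% and 14.96%. Thinning every cell with at least 3069 UMIs to that number left the order in place, with Ccl12 in 42.5% and 67.9% of the cells, Ccl2 in 37.9% and 46.7%, and Ccl7 in 11.6% and 10.7%. Thinned shares here and below leave out the cells with fewer UMIs than the number thinned to.

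Ccl3 and Ccl4, which encode the macrophage inflammatory proteins MIP-1α and MIP-1β, had the highest CPM of the 10 in both cortex libraries and differed less between them. Ccl3 was at 3411 CPM (19098 UMIs) in control and 5060 CPM (49287 UMIs) in mutant microglia-like cells, a log2 ratio of 0.57 (0.54 to 0.59). Ccl4 was at 3396 CPM (19012 UMIs) and 5502 CPM (53591 UMIs), a log2 ratio of 0.70 (0.67 to 0.72). Neither passed 2-fold, and both were found in most cells. Ccl3 was in 85.4% of control and 90.9% of mutant cells and Ccl4 in 81.5% and 87.5%, and after thinning in 82.1% and 89.6%, and in 76.9% and 85.8%. The median control cell held 15 Ccl3 UMIs with quartiles of 3 and 32, and the median mutant cell 24.5 with quartiles of 7 and 51. For Ccl4 the medians were 11.5 and 24 UMIs. The quartile ranges of the libraries overlapped for both genes.

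Ccl5, a ligand of CCR1 typical of T and NK cells, rested on very few cells. It was at 3.21 CPM (18 UMIs) in control and 60.2 CPM (586 UMIs) in mutant microglia-like cells, a log2 ratio of 4.23 (3.55 to 4.99). The control UMIs lay in 3 of 874 cells and the mutant UMIs in 76 of 1410 cells, or 0.343% (0.0708 to 0.9998) against 5.39% (4.27 to 6.70). A single mutant cell held 204 of the 586 UMIs, and 3 cells held 50% of them. The gap therefore rests on a few cells in its size, but not in the share of cells with a UMI. The summed level of 9 T and NK cell markers in the microglia-like cells was 0.595 CPM for the control and 0.411 CPM for the mutant, with 5 of the 9 at 0 in both. In each of the 76 mutant cells with a Ccl5 UMI both Ccl3 and Ccl4 were found, and these cells were deeper, with a median of 9249 UMIs against 6346.5 in the rest.

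Of the CXCR2 ligands, Cxcl2 but not Cxcl1 was a microglial transcript. Cxcl2 was at 81.5 CPM (457 UMIs) in control and 312 CPM (3041 UMIs) in mutant microglia-like cells, a log2 ratio of 1.94 (1.79 to 2.08). It was found in 6.41% (4.88 to 8.24) of control and 14.96% (13.1 to 16.9) of mutant cells, and after thinning in 4.21% and 11.9%. Cxcl1 had 12 control and 31 mutant UMIs, with an interval of its log2 ratio from -0.43 to 1.67 that spans 0. Its level there was 3.36% of that in control barcodes without a cell (fewer than 200 UMIs), which carry free RNA, and 2.67% of that in the mutant, so that Cxcl1 was not detectable above background in microglia-like cells.

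Cxcl10, the CXCR3 ligand, was at 286 CPM (1604 UMIs) in control and 822 CPM (8006 UMIs) in mutant microglia-like cells, a log2 ratio of 1.52 (1.44 to 1.60). Cells with a Cxcl10 UMI made up 19.8% (17.2 to 22.6) of the control and 37.9% (35.3 to 40.5) of the mutant, and 6.98% and 16.1% of the cells held 10 or more. Cxcl16, the transmembrane CXCR6 ligand, was at 75.5 CPM (423 UMIs) and 243 CPM (2363 UMIs), a log2 ratio of 1.68 (1.53 to 1.84), and was found in 26.4% and 55.4% of the cells. After thinning the shares were 15.4% and 32.7% for Cxcl10 and 16.8% and 41.2% for Cxcl16. The difference in Cxcl16 was spread over many cells with few UMIs each, since no cell held more than 10 Cxcl16 UMIs in the control or 16 in the mutant, whereas single mutant cells held up to 264 UMIs of Cxcl10.

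How evenly a chemokine was spread over the microglia-like cells was measured as the share of cells that together held 50% of its UMIs. Ccl3 was the most even, with 16.7% of control and 17.8% of mutant cells, followed by Ccl4 with 14.6% and 16.2%. Ccl12 needed 8.35% and 8.23%, Cxcl16 6.98% and 11.8%, and Ccl2 6.29% and 7.02%. Cxcl10 with 2.86% and 4.75%, Ccl7 with 2.63% and 2.48%, and Cxcl2 with 0.572% and 1.99% were concentrated in few cells, and Ccl5 was held to 50% by 1 control and 3 mutant cells. Between the libraries this share was nearly the same for Ccl12, although Ccl12 was 3.47-fold higher. The Ccl12 UMIs were higher in the typical cell, where the median was 1 in the control and 3 in the mutant, and in the extreme cell, with 37 and 243 UMIs. Cells with 10 or more Ccl12 UMIs made up 3.66% of control and 19.3% of mutant cells.

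**Figure D2:**
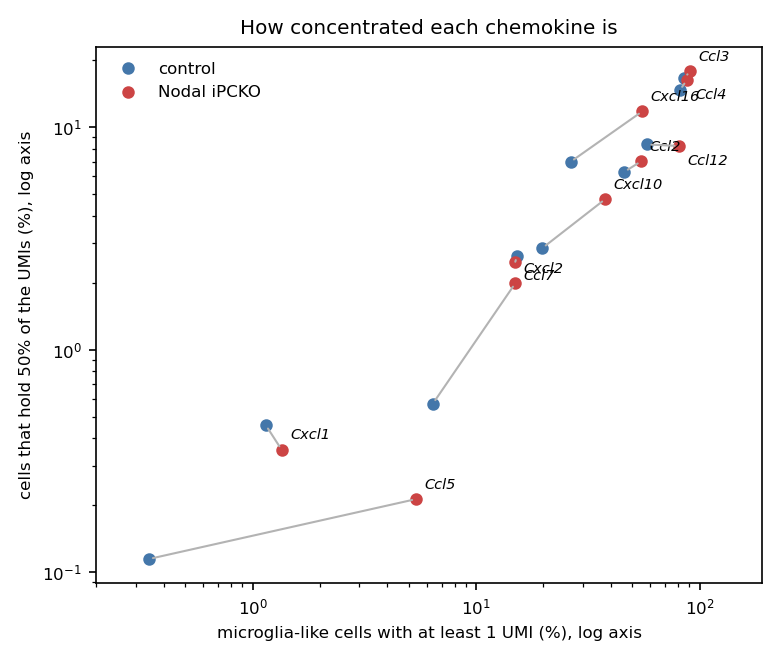
For each chemokine in microglia-like cells, the share of cells with at least 1 UMI against the share of cells that hold 50% of its UMIs, both in percent on log axes, with 1 point per cortex library. Ccl3 and Ccl4 lie at the upper right, with over 80% of cells positive, and Ccl5 at the lower left, with 0.343% of control and 5.39% of mutant cells positive.

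Ccl7 was found largely in cells with Ccl2, though not the reverse, and Ccl3 and Ccl4 were found largely in the same cells. Of the cells with Ccl7, 94.7% in the control and 95.3% in the mutant also held Ccl2, against 37.2% and 47.6% of the cells without Ccl7. Of the 23 control cells that held 50% of the Ccl7 UMIs, 20 were among the 55 that held 50% of the Ccl2 UMIs, and in the mutant 30 of 35 were among 99. The shared cells made up 36.4% of the 55 and 30.3% of the 99. Of the cells with Ccl3, 88.2% and 93.1% held Ccl4, against 42.2% and 31.2% of the cells without Ccl3. The 146 control cells that held 50% of the Ccl3 UMIs included 85 of the 128 that held 50% of the Ccl4 UMIs, and in the mutant 251 included 171 of 229. Of the 55 control cells that held 50% of the Ccl2 UMIs 15, or 27.3%, were among the 73 such cells of Ccl12, the third gene of its group, and in the mutant 38 of 99, or 38.4%, were among 116. Genes on different chromosomes also overlapped. Of the mutant cells with Cxcl10, 72.5% held Cxcl16 and 91.0% Ccl12, against 44.98% and 74.1% of the cells without Cxcl10. In the control these shares were 47.4% and 80.3%, against 21.3% and 52.8%. Deeper cells hold more genes, and these shares were not thinned.

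Depth moved with the chemokine level within each library, so the microglia-like cells were split at 6324 UMIs, the median of both libraries, after the data had been seen. Below it, the log2 ratio was 1.58 for Ccl12, 2.46 for Cxcl2, 0.79 for Cxcl10 and 1.80 for Cxcl16. At or above it, it was 1.81, 1.72, 1.54 and 1.58. Ccl12, Cxcl2 and Cxcl16 were thus past 2-fold on both sides of the split, and Cxcl10 in the deeper cells. In the shallower cells Cxcl10 was at 159 CPM in control and 274 CPM in mutant cortex, and in the deeper cells at 374 and 1086 CPM. Ccl7 had a log2 ratio of 0.08 in the shallower and -0.52 in the deeper cells.

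Other gene lists gave the setting of these differences in microglia-like cells, where 4.79% of all genes with enough UMIs were higher in the mutant and 5.86% lower. Of 13 genes of the TNF, IL-1 and NF-kB response, 4 were higher in the mutant and 0 lower, with a median log2 ratio of 0.51. These 4 were the cytokines Il1a (964 to 2269 CPM, 1.24) and Il1b (150 to 495 CPM, 1.72), the growth factor Csf1 (129 to 485 CPM, 1.91) and the prostaglandin synthase Ptgs2 (8.75 to 24.5 CPM, 1.49). Of 10 interferon-stimulated genes, 7 were higher and 0 lower, with a median of 2.13, among them Oasl2 (34 and 310 UMIs, 2.39), Ifit3 (10 and 166 UMIs, 3.25), Isg15 (24 and 146 UMIs, 1.81) and Rsad2 (6 and 124 UMIs, 3.57). Of 9 genes of disease-associated microglia, 6 were higher and 0 lower, with a median of 1.63, among them the receptor tyrosine kinase Axl (48.9 to 278 CPM, 2.51), Cd52 (331 to 1024 CPM, 1.63), lipoprotein lipase Lpl (109 to 248 CPM, 1.19) and the integrin Itgax (5.72 to 52.7 CPM, 3.20). All 10 immediate-early genes, which rise when tissue is dissociated, stayed within 2-fold, with a median of -0.13 and a sum of 6538 CPM in control and 5528 CPM in mutant cells. The summed markers of border macrophages were at 342 and 262 CPM in these cells, with 2 of 8 at 0, and those of neutrophils at 206 and 176 CPM. The part of dissociation, depth or other cell types in the chemokine levels was not tested.

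Of 24 other chemokine genes, 12 had enough UMIs in the microglia-like cells. Of these 3 were higher, against 4.79% of all genes, and 1 lower, against 5.86%, with a median log2 ratio of 0.38. Ccl22, a CCR4 ligand, had 0 control and 76 mutant UMIs. Cxcl11, a CXCR3 ligand like Cxcl10, had 4 and 34 UMIs, and the eosinophil chemokine Ccl24 had 6 and 26. The B cell chemokine Cxcl13 had 34 and 20 UMIs and a log2 ratio of -1.56 (-2.44 to -0.73). All 4 rest on far fewer UMIs than Ccl2, Ccl3, Ccl4, Ccl7, Ccl12, Cxcl2, Cxcl10 or Cxcl16 in the same cells.

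**Figure D3:**
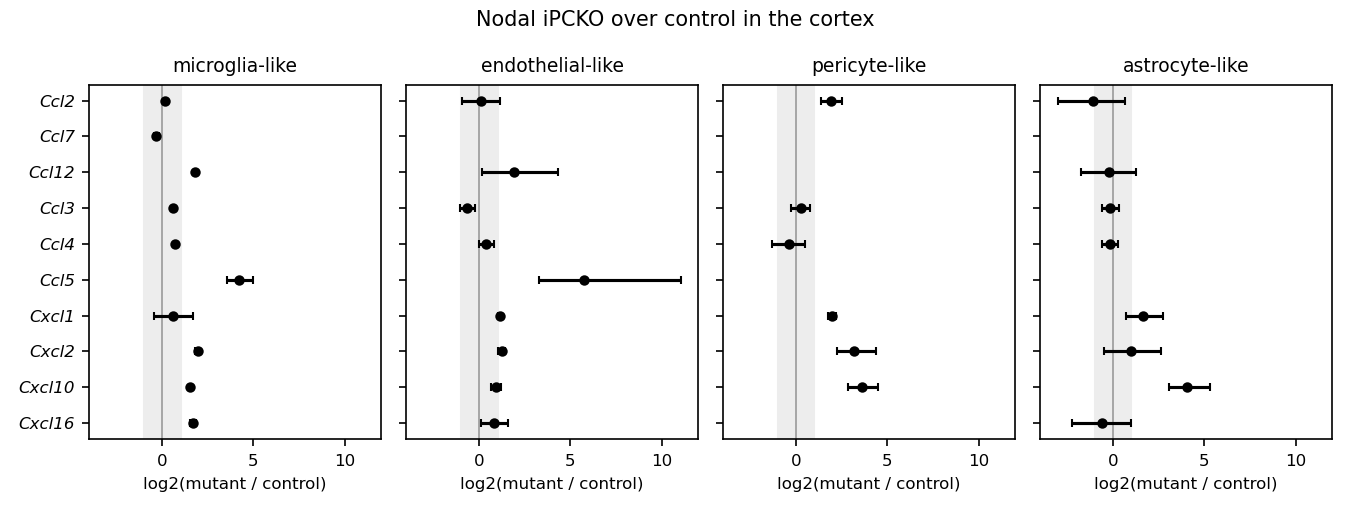
Log2 ratio of Nodal iPCKO over control for each chemokine in microglia-like, endothelial-like, pericyte-like and astrocyte-like cortex cells, with conditional exact 95% intervals for counting error and a grey band over ratios within 2-fold. Ccl12, Ccl5, Cxcl2, Cxcl10 and Cxcl16 lie past 2-fold in microglia-like cells, and Cxcl1 and Cxcl2 in endothelial-like and pericyte-like cells. Also past 2-fold are Ccl12 and Ccl5 in endothelial-like and Ccl2 and Cxcl10 in pericyte-like cells. In astrocyte-like cells Cxcl1 and Cxcl10 are past 2-fold upward and Ccl2 downward. The intervals widen where few UMIs were found.

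Each chemokine had its own distribution over the cortex. Of all its UMIs in the kept barcodes, the microglia-like cells held 94.6% of Ccl3 in the control and 96.7% in the mutant, 96.2% and 96.9% of Ccl4, 89.2% and 95.4% of Ccl12, 86.4% and 86.2% of Ccl2, and 86.9% and 88.0% of Cxcl10. For Cxcl16 the shares were 78.8% and 91.3%. Ccl7 was shared with a few border macrophage-like cells (22 control and 19 mutant), which held 21.9% and 27.6% of its UMIs, while microglia-like cells held 67.6% and 61.9%. Cxcl2 was shared with endothelial-like cells, which held 25.3% and 24.9% of it, and Cxcl1 lay mainly outside microglia, with 64.5% and 62.2% in endothelial-like and 14.7% and 21.6% in pericyte-like cells. In the border macrophage-like cells Ccl2 was at 2100 CPM in control and 4014 CPM in mutant cortex, Ccl7 at 1543 and 3267 CPM, Cxcl2 at 1220 and 2250 CPM and Ccl3 at 1802 and 2163 CPM, in too few cells for a comparison.

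**Figure D4:**
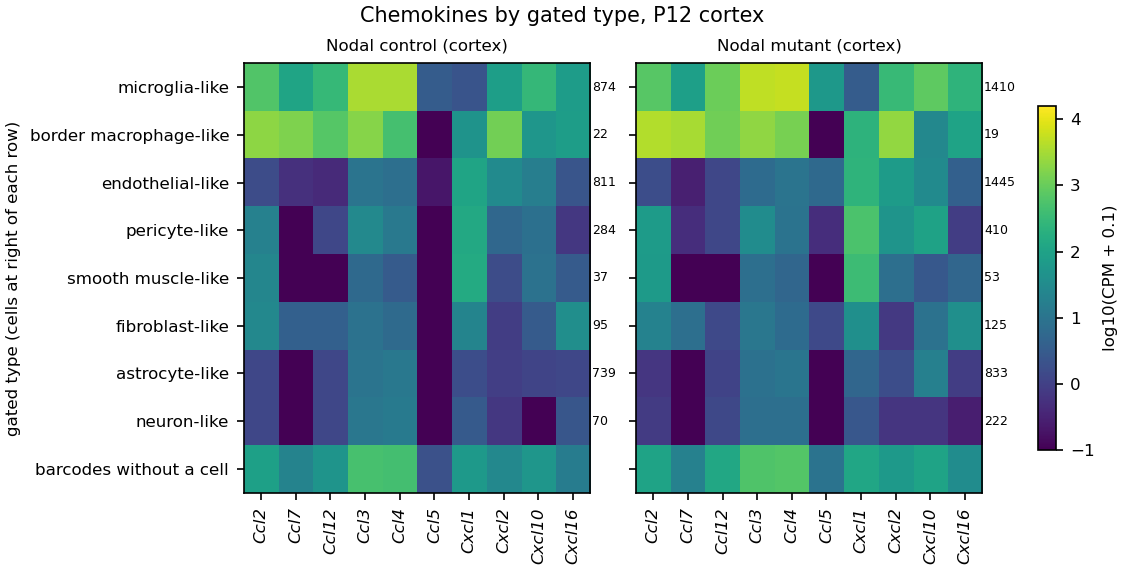
Level of each chemokine (columns) by cell type (rows) in the control and Nodal iPCKO cortex libraries, coloured by log10(CPM + 0.1), with the number of cells at the right and barcodes without a cell in the lowest row. Of the rows shown, Ccl3, Ccl4 and Cxcl10 are highest in the microglia-like row, Ccl2, Ccl7, Ccl12 and Cxcl2 in the border macrophage-like row, and Cxcl1 is high in the endothelial-like, pericyte-like and smooth muscle-like rows.

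In endothelial-like cells (811 control and 1445 mutant), Cxcl1 was the main chemokine transcript. It was at 107 CPM (1009 UMIs) in control and 236 CPM (3927 UMIs) in mutant cells, a log2 ratio of 1.14 (1.04 to 1.24). Cells with a Cxcl1 UMI made up 25.4% and 45.9%, and 18.9% and 37.9% after thinning to 4901 UMIs, with a median depth of 9803 and 10056 UMIs. Cxcl2 was at 31.0 CPM (292 UMIs) and 72.8 CPM (1212 UMIs), a log2 ratio of 1.23 (1.04 to 1.42), in 10.4% and 22.5% of the cells. Of the cells, 4.56% and 7.47% held 50% of the Cxcl1 UMIs. Against barcodes without a cell, the level was 168% in the control and 198% in the mutant for Cxcl1, and 116% in both for Cxcl2, whose free RNA level was itself 26.7 CPM in control and 62.6 CPM in mutant cortex. The part of free RNA in the Cxcl2 call was not tested. Cxcl10 was at 16.7 CPM (157 UMIs) and 31.1 CPM (518 UMIs), a log2 ratio of 0.90 (0.64 to 1.17), under 2-fold. Ccl5 had 1 control UMI and 96 mutant UMIs, the latter in 6 cells, with 34 in one of them. In all, 4 of 9 chemokines with enough UMIs were higher (Ccl12, Ccl5, Cxcl1 and Cxcl2), against 3.73% of all genes, and 0 lower, against 4.42%. Ccl12 had 3 and 20 UMIs there, while its level in barcodes without a cell was 49.3 CPM in control and 128 CPM in mutant cortex, so its UMIs in endothelial-like cells were read as background. Among genes with at least 100 UMIs, 2 of 5 were higher, against 0.301% of all genes.

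Pericyte-like cells (284 control and 410 mutant), the cells in which Nodal was deleted, showed the same CXCR2 ligands with wider gaps. Cxcl1 was at 136 CPM (230 UMIs) in control and 527 CPM (1361 UMIs) in mutant cells, a log2 ratio of 1.96 (1.75 to 2.16), in 21.1% (16.5 to 26.3) and 46.3% (41.4 to 51.3) of the cells. After thinning to 2791 UMIs the shares were 14.1% and 38.5%. Ccl2 was at 19.5 CPM (33 UMIs) and 72.8 CPM (188 UMIs), a log2 ratio of 1.90 (1.36 to 2.48), whereas it differed by 0.14 in microglia-like cells. Cxcl2 had 9 and 125 UMIs, a log2 ratio of 3.19 (2.22 to 4.35). Cxcl10 had 14 and 256 UMIs, a log2 ratio of 3.58 (2.81 to 4.48), but a single mutant cell held 133 of them. Without the 1% of cells with the most chemokine UMIs, Cxcl10 had 12 and 107 UMIs and a log2 ratio of 2.56. Against barcodes without a cell, the level in pericyte-like cells was 213% in the control and 442% in the mutant for Cxcl1, 21.1% and 71.0% for Ccl2, 19.9% and 77.3% for Cxcl2 and 15.2% and 96.0% for Cxcl10. Of these 4 genes, Cxcl1 alone was thus above the free RNA level, and the part of free RNA in the other calls was not tested. Ccl3, at 5.95% and 5.77% of that level, and Ccl4, at 2.78% and 1.43%, differed by 0.23 (-0.29 to 0.77) and -0.42 (-1.32 to 0.50), with both intervals spanning 0. With Leiden clusters in place of the gate, Ccl3 was at 1.18 and Ccl4 at 1.83, and Cxcl2 at 1.87. Of 6 chemokines with enough UMIs 4 were higher, against 3.69% of all genes, and 0 lower, against 4.17%. Among genes with at least 100 UMIs 4 of 5 were higher, against 0.39%. In smooth muscle-like cells, 37 and 53 in number and too few for a count, Cxcl1 had 51 and 139 UMIs.

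Astrocyte-like cells (739 control and 833 mutant) held little of most chemokines. Ccl3 was found in 9.20% and 8.16% of them at median depths of 10104 and 10858 UMIs, and its CPM there was 2.05% of that in control barcodes without a cell and 1.52% in mutant ones, so that these UMIs were read as background. By contrast, all chemokines but Cxcl1 were at 174% or more of that free RNA level in microglia-like cells of either library. In astrocyte-like cells Cxcl10 stood out, with 8 control and 159 mutant UMIs, a log2 ratio of 4.06 (3.05 to 5.30). It was at 1.97% of its free RNA level in the control, as low as Ccl3, and at 17.3% in the mutant. Its UMIs lay in 28 mutant cells, 3 of which held 50%. Without the 1% of cells with the most chemokine UMIs it had 4 and 44 UMIs, a log2 ratio of 3.21. Of 8 chemokines with enough UMIs 2 (Cxcl1 with 12 and 45 UMIs, and Cxcl10) were higher, against 3.46% of all genes, and 1 (Ccl2 with 9 and 5 UMIs) was lower, against 4.11%. Here Cxcl1 and Ccl2 were far under their levels in barcodes without a cell in either library, and were read as background. With Leiden clusters the log2 ratio of Ccl2 was 0.84. The fibroblast-like cells had 2 of 7 higher (Ccl7 and Cxcl10), against 4.68%, and 0 lower, against 4.61%. Their folds were 2.01 (0.658 to 7.27) for Ccl7 and 2.93 (0.919 to 12.2) for Cxcl10, with both intervals spanning 1. The neuron-like cells had 0 of 3 in either direction, against 4.12% and 7.51%. Over all kept cortex barcodes 6 of 10 were higher, against 4.42%, and 0 lower, against 4.17%.

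The receptors of these ligands were also measured. Of 11 receptor genes, 6 had enough UMIs in microglia-like cells. Of these 0 were higher, against 4.79% of all genes, and 1 was lower (Ccr3, with 7 and 6 UMIs), against 5.86%, with a median log2 ratio of -0.72. Ccr1 and Ccrl2 were highest in microglia-like cells among the cortex types with at least 50 cells. Ccrl2, a receptor that binds without signalling, was at 195 CPM in control and 350 CPM in mutant cells, a log2 ratio of 0.85 (0.75 to 0.95). Ccr1 was at 45.5 and 55.4 CPM. The scavenging receptor Ackr2, which takes up CC chemokines, was highest in endothelial-like cells in all 6 libraries, with 33.4 and 32.3 CPM in the cortex, 125 and 131 CPM in the Bdnf lungs and 63.8 and 41.8 CPM in the Hgf lungs. Ackr1 was highest in neuron-like cortex cells, at 76.7 and 73.0 CPM. Cxcr3 and Cxcr6, the receptors of CXCL10 and CXCL16, had at most 10 and 3 UMIs in any library.

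Genes with the most similar pattern were ranked by Spearman's rho of log2(CPM + 1) over 48 library and cell type groups, for 22064 genes. Ccl3 and Ccl4 were each other's closest, with a rho of 0.895. Among the genes closest to Ccl12 were P2ry13 (0.883), a microglial marker of the gate, and Lhx2 (0.856). Cxcl16 was closest to Tapbpl (0.838), Tapbp (0.805) and H2-D1 (0.756), which belong to antigen presentation by MHC class I, and Cxcl10 to Pprc1 (0.758), Stx4a (0.747) and Nfkbiz (0.736). Ccl5 was closest to P2ry10b (0.701), Cxcl9 (0.696) and Zbp1 (0.688). Ccl2 was closest to Adora2a (0.825), Ccl7 to Slfn8 (0.769), Cxcl1 to Nfatc4 (0.817) and Cxcl2 to Gm12358 (0.816). The groups share libraries and depth, so these values are descriptions, and for a gene near 0 in most groups the rank order rests on a few UMIs.

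In the lungs, depleted of CD45+ cells, the sum of the 10 chemokines was lower than in the cortex and its sources were others. Over all kept barcodes the 10 genes summed to 130 and 103 CPM in the Bdnf control and Bdnf iPCKO lungs and to 159 and 76.9 CPM in the Hgf control and Hgf iPCKO lungs, against 1719 and 3064 CPM in the cortex libraries. Not every gene was lower, since Cxcl16 was at 27.2 to 45.2 CPM in the lungs and at 17.8 CPM in control and 52.9 CPM in Nodal iPCKO cortex. Most UMIs of Ccl3 and Ccl4 came from a few mast or basophil-like cells left after the depletion, 37 and 20 in the Bdnf pair and 46 and 18 in the Hgf pair, whose leading genes besides Ccl3 and Ccl4 included Mcpt8, Prss34, Ms4a2 and Osm. These cells held 89.8% of the Ccl3 UMIs in the Bdnf control library and 70.9% in the mutant, and 88.0% and 79.6% in the Hgf pair, and between 71.3% and 90.6% of the Ccl4 UMIs. In them Ccl3 was at 12205 and 6392 CPM in the Bdnf pair and at 14999 and 9516 CPM in the Hgf pair, and Ccl4 at 12695 and 6899 CPM and at 14667 and 6860 CPM. These levels were above those of microglia-like cortex cells. Of the 37 Bdnf control cells, 11 held 50% of the Ccl3 UMIs. Cxcl2 was at 1299 and 528 CPM in the Bdnf pair and at 1142 and 810 CPM in the Hgf pair.

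**Figure D5:**
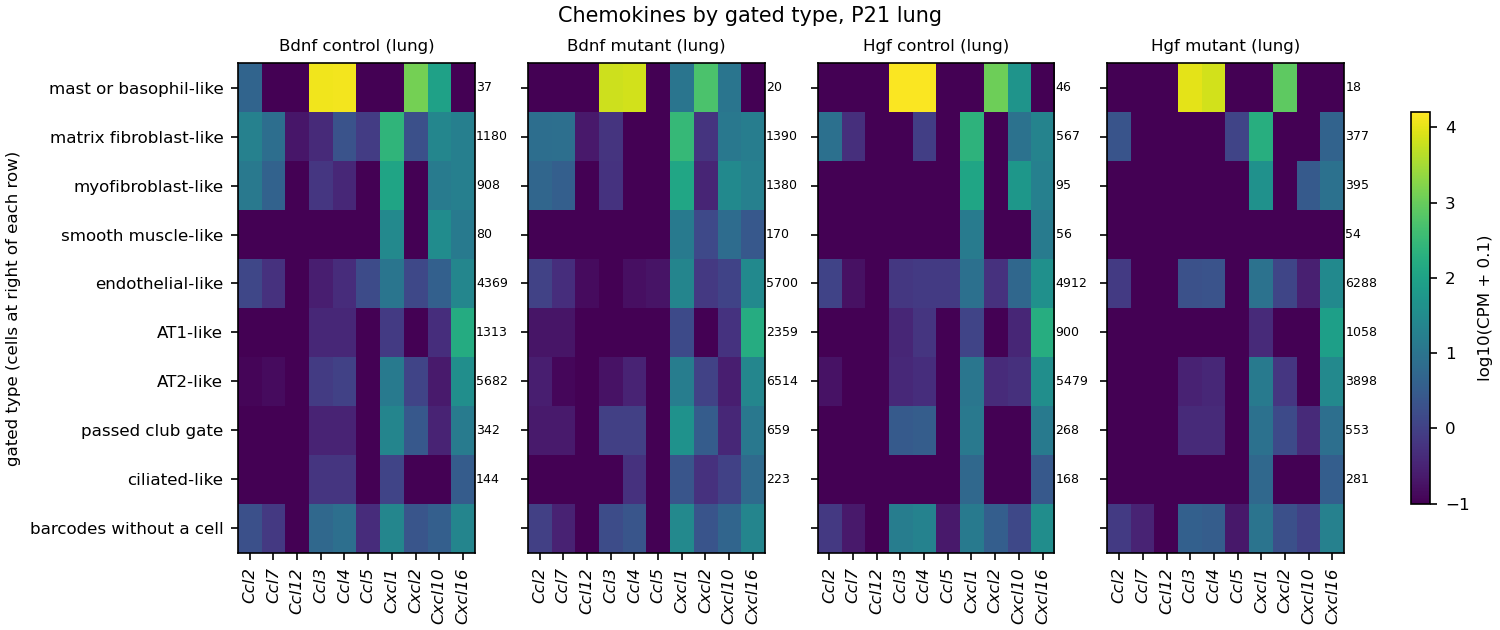
Level of each chemokine (columns) by cell type (rows) in the 4 lung libraries, coloured by log10(CPM + 0.1), with the number of cells at the right and barcodes without a cell in the lowest row. The pericyte and mesothelial gates and the other leukocyte gates are not shown. Of the rows shown, Ccl3, Ccl4 and Cxcl2 are highest in the mast or basophil-like row, Cxcl1 in the matrix fibroblast-like row and Cxcl16 in the AT1-like row.

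Cxcl16 and Cxcl1 had sources in the structural cells of the lung. Of the gated lung types, the barcodes that passed the club gate had leading genes of other airway secretory cells, such as Bpifb1, Bpifa1 and Muc5b, and are called by their gate, the smooth muscle-like cells had heart muscle genes such as Actc1 and Myl7 beside their own markers, and none of the endothelial markers was among the 10 leading genes of the endothelial-like cells, which included Vwf and Mmrn2. Cxcl16 was highest in AT1-like cells, the flat cells of the alveolar surface, at 159 CPM (1680 UMIs) in the Bdnf control and 168 CPM (1714 UMIs) in the Bdnf iPCKO library, a log2 ratio of 0.08 (-0.02 to 0.17). In the Hgf pair it was at 173 CPM (656 UMIs) and 84.4 CPM (262 UMIs), a log2 ratio of -1.03 (-1.24 to -0.82), which was -0.76 and no longer past 2-fold when cells were grouped by Leiden clusters. It was spread over many of these cells, being found in 64.4% of Bdnf control AT1-like cells, 17.3% of which held 50% of its UMIs. In AT2-like cells, the surfactant-producing cells, it was at 37.6 and 24.3 CPM in the Bdnf pair and at 37.5 and 27.7 CPM in the Hgf pair. Among types with at least 50 cells in both libraries of a pair, Cxcl1 was highest in matrix fibroblast-like cells, at 249 CPM (2375 UMIs) and 312 CPM (2534 UMIs) in the Bdnf pair and at 232 CPM (576 UMIs) and 178 CPM (165 UMIs) in the Hgf pair. It was found in 21.9% of the Bdnf control fibroblast-like cells, and 3.31% of them held 50% of its UMIs. Barcodes left out because 2 classes, related or not, came close in their markers held 20.2% to 31.4% of the Cxcl1 and 20.5% to 37.5% of the Cxcl16 UMIs of a lung library. Ccl12, a main transcript of the cortex, had 2, 3, 0 and 0 UMIs in the lung libraries, and Ccl5 had 47 of 56 UMIs of the Hgf control library in 1 T or NK-like cell.

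Over all kept barcodes of the Bdnf pair, 0 of 9 chemokines were higher in the mutant, against 4.01% of all genes, and 4 were lower (Ccl3, Ccl4, Ccl5 and Cxcl2), against 2.66%. The log2 ratio was -1.85 for Ccl3, -1.80 for Ccl4 and -1.03 for Cxcl2, the last of which was -0.70 with a doubled UMI minimum. Mast or basophil-like cells made up 0.216% (0.152 to 0.297) of the control and 0.0823% (0.0503 to 0.127) of the mutant barcodes. Without these cells the log2 ratios of Ccl3, Ccl4 and Cxcl2 were -0.34, -0.18 and -0.33, none past 2-fold. Ccl5, with 46 and 11 UMIs, stayed past 2-fold at -2.19 (-3.29 to -1.22), and 9 of its 11 mutant UMIs lay in 1 cell. Over the Hgf pair, 0 of 8 were higher, against 9.52%, and 3 were lower, against 8.05%. These were Ccl3 (-1.32), Ccl4 (-1.80) and Cxcl10 (139 and 20 UMIs, -2.69). Mast or basophil-like cells made up 0.315% and 0.111% of the barcodes, and without them the log2 ratio was -0.56 for Ccl3 and -1.13 for Ccl4. The control lung libraries, whose crosses and UMI minimums differ, were not alike either. Over all kept barcodes the log2 ratio of Hgf control over Bdnf control was 1.06 for Ccl3, 0.97 for Ccl4 and -0.73 for Cxcl10.

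Within cell types of the Bdnf pair, endothelial-like cells (4369 and 5700) had 1 of 8 chemokines higher, against 4.51% of all genes, and 3 lower, against 3.61%. Cxcl1 was higher, at 10.4 CPM (234 UMIs) and 23.6 CPM (553 UMIs), a log2 ratio of 1.18 (0.96 to 1.41). These levels were 42.6% and 85.7% of that in barcodes without a cell, so Cxcl1 did not exceed its free RNA level here in either library, and the part of free RNA in this call was not tested. In these cells 9 AT1 markers summed to 589 CPM in control and 1145 CPM in mutant lungs, and 6 club cell markers to 780 and 1394 CPM. The 11 matrix fibroblast markers were at 499 and 500 CPM, and 11 interstitial macrophage or monocyte markers at 159 and 113 CPM. The part of these in the chemokine levels was not tested. Cxcl10 was lower, with 86 and 24 UMIs and a log2 ratio of -1.90 (-2.62 to -1.23), but 1 control cell held 26 of the 86, and without the top 1% of cells it had 22 and 12 UMIs and a log2 ratio of -0.93, under 2-fold. Also lower were Ccl5 with 33 and 2 and Ccl4 with 8 and 2 UMIs. Of the 33 Ccl5 UMIs 25 were in 1 cell. Matrix fibroblast-like cells (1180 and 1390) had 0 of 7 higher, against 5.98%, and 4 lower, against 2.94%. Ccl2 had 183 and 62 UMIs, a log2 ratio of -1.33 (-1.77 to -0.91), but a single control cell held 58, and without the top 1% of cells it was -0.65. Cxcl10 had 233 and 96 UMIs, a log2 ratio of -1.05 (-1.41 to -0.70), or -0.98 with Leiden clusters. Ccl4 and Cxcl2 rested on 1 cell each in the control, with 19 Ccl4 UMIs in 1 cell and 14 of 17 Cxcl2 UMIs in 1 cell. The control lung libraries also differed in these cells. There the log2 ratio of Hgf control over Bdnf control was -1.25 for Ccl2 and -1.46 for Cxcl10. For Cxcl1 and Cxcl16 it was -0.10 and 0.27. Of 10 interferon-stimulated genes, 0 were higher and 5 lower in the endothelial-like cells, with a median log2 ratio of -1.08.

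Other types of the Bdnf pair had few members with enough UMIs. AT2-like cells had 0 of 6 higher, against 6.24%, and 2 lower, against 2.84%, namely Ccl3 (35 and 3 UMIs, 20 in 1 cell) and Ccl4 (44 and 9, 17 in 1 cell). Without the top 1% of cells Ccl4 had 9 and 8 UMIs and a log2 ratio of 0.14, so that its call was lost. AT1-like cells had 1 of 2 higher, against 9.77%, and 0 lower, against 2.35%. The gene was Cxcl1, with 7 and 14 UMIs, a log2 ratio of 1.05 (-0.36 to 2.60) and 2.72% and 4.98% of its level in barcodes without a cell, which was read as background. Myofibroblast-like cells had 1 of 5 higher (Cxcl10, 51 and 119 UMIs, a log2 ratio of 1.03 that was 0.26 with a doubled UMI minimum), against 5.24%, and 1 lower (Ccl2, 45 and 21 UMIs), against 3.52%. Smooth muscle-like cells had 0 of 2 higher, against 7.21%, and 2 lower (Cxcl1 and Cxcl10), against 8.53%. All 27 control chemokine UMIs lay in 2 of the 80 cells, and Cxcl10 had 12 and 5 UMIs. Cxcl1 had 10 and 10 UMIs there, and with Leiden clusters it had 42 and 198 UMIs and a log2 ratio of 1.42, past 2-fold in the other direction. Barcodes that passed the club gate had 0 of 3 in either direction, against 5.26% and 3.38%, and ciliated-like cells 0 of 1, against 5.14% and 3.22%. The barcodes that passed the pericyte gate (94 control and 127 mutant), which were left unnamed, had 1 of 1 higher, against 8.37%, and 0 lower, against 9.77%. This was Cxcl1, with 16 and 45 UMIs and a log2 ratio of 1.74 (0.89 to 2.66). None of these types had more than 1 chemokine higher in the mutant, though ciliated-like cells and the pericyte gate had only 1 with enough UMIs.

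In the Hgf pair, endothelial-like cells (4912 and 6288) had 3 of 7 higher, against 8.39%, and 1 lower, against 9.15%. The 3 were Ccl3 (8 and 30 UMIs), Ccl4 (9 and 34) and Cxcl2 (6 and 18), and in the mutant 1 cell held 20 of the 30, 22 of the 34 and 9 of the 18. All 3 were under their level in barcodes without a cell, at 3.77% in the control and 48.8% in the mutant for Ccl3, 3.28% and 62.9% for Ccl4 and 12.8% and 62.3% for Cxcl2. Cxcl10 was lower, with 72 and 3 UMIs, but 65 of the 72 were in 1 control cell. These calls thus rest on single cells. Cxcl16, the main chemokine of these cells, was at 39.8 and 29.9 CPM, a log2 ratio of -0.41 (-0.59 to -0.23), in 9.28% and 6.92% of the cells. Matrix fibroblast-like cells (567 and 377) had 0 of 4 higher, against 11.3%, and 3 lower (Ccl2 with 20 and 2, Cxcl10 with 22 and 0 and Cxcl16 with 52 and 4 UMIs), against 11%. In these cells the median depth was 3372 UMIs for control and 1893 for mutant lungs, their own 11 markers summed to 88222 and 54003 CPM, and 6 club cell markers to 914 and 2495 CPM, and the part of these in the chemokine levels was not tested. AT1-like cells had 0 of 1 higher, against 9.57%, and 1 lower (Cxcl16), against 7.66%, and AT2-like cells 0 of 6 in either direction, against 9.16% and 8.76%. In the AT2-like cells Cxcl10 had 11 and 0 UMIs and stayed just within 2-fold, at -0.999, because the 0 was set to 3 UMIs. It was past 2-fold with the gate raised by 1 marker (-1.01) and with median-of-ratios scaling (-1.03). Myofibroblast-like cells (95 and 395) had 0 of 3 higher, against 14.3%, and 3 lower, against 11.8%. These were Cxcl1 (24 and 29 UMIs), Cxcl10 (12 and 2) and Cxcl16 (4 and 6). The fold of Cxcl16 had an interval of 0.111 to 2.25, which spans 1. All 40 control UMIs of these genes lay in 13 of the 95 cells. Grouped by Leiden clusters, Cxcl1 had a log2 ratio of -0.58 and Cxcl16 of -0.83, both within 2-fold. In the myofibroblast-like cells their own 7 markers summed to 20416 and 13037 CPM and 11 matrix fibroblast markers to 10998 and 6989 CPM. In the AT1-like cells, 6 club cell markers summed to 756 and 1975 CPM and 7 ciliated cell markers to 1070 and 260 CPM, while their own 9 markers were at 30792 and 31512 CPM. The part of these in the chemokine levels was not tested. Cxcl16 was under its level in barcodes without a cell in matrix fibroblast-like cells (59.5% and 22.3%) and myofibroblast-like cells (53.0% and 44.8%), and above it in AT1-like cells (490% and 434%). Of 10 interferon-stimulated genes, 0 were higher and 7 lower in the endothelial-like cells, with a median of -1.76. Barcodes that passed the club gate had 0 of 2 in either direction, against 9.95% and 9.08%, ciliated-like cells 0 of 2, against 8.92% and 5.16%, and pericyte-like cells 0 of 1, against 12.7% and 9.59%. Macrophage-like cells were too few to compare in either lung pair, with 3 to 25 interstitial macrophage or monocyte-like cells in a library.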

How the data were processed

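Cells of cerebral cortex (P12) and lung (P21) were captured on BD Rhapsody, with 1 library per group. The authors aligned the reads with STARsolo (STAR 2.7.10a per the labels) to GRCm39 with a Gencode annotation and deposited unfiltered matrices of estimated counts, UMIs that STARsolo divides by expectation maximization where reads match several genes. Between 8.50% and 9.95% of the deposited entries are not whole numbers.

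Barcodes with at least 1500 UMIs (700 in the Hgf libraries) were kept. A barcode passed the gate of a cell type when it held at least 3 of its markers and more than free RNA would give (Poisson tail 0.01). The barcode was given to the class with the largest share of its markers held. It stayed unassigned when another class, related or not, held at least 3 markers and over 0.6 of that share. This also served as the treatment of doublets, and no doublet caller was run. Counts were summed per library and type and divided by all UMIs of the type. Ratios have conditional exact, levels exact Poisson and shares Clopper-Pearson 95% intervals. UMIs of a chemokine sit in few cells, so these intervals understate the error. Types with under 50 cells in a library were not compared. The script was tested on simulated data. Python 3.11.15, numpy 2.4.6, scipy 1.17.1, pandas 2.3.3, scanpy 1.11.5 and matplotlib 3.10.9 were used. The 10 genes and all lists were chosen with earlier results of these data known, so no list supports another. All 10 chemokines are named, with up to 4 genes of each other list that were past 2-fold with at least 30 UMIs in microglia-like cells, and receptors by the type with the highest CPM. A few items are not reported here. Alternatives were a doubled UMI minimum, a mitochondrial limit of 15%, a gate raised by 1 marker, Leiden clusters, median-of-ratios scaling, whole-number entries alone, at least 30 UMIs for a ratio and leaving out the top 1% of cells, with a split of microglia-like cells by depth and lungs without mast or basophil-like cells added after seeing the data.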

Additional observations from a re-analysis of the deposited data

Results flagged for a closer look

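A few log2 ratios of mutant over control pointed in opposite directions in the lung pairs, with intervals on either side of 0. Cxcl1 over all kept barcodes was 0.40 in the Bdnf and -0.54 in the Hgf lungs, and in matrix fibroblast-like cells 0.32 and -0.38. Without the top 1% of cells the latter was -1.04 (454 and 82 UMIs), and 4 mutant cells held 50% of the Cxcl1 UMIs. Cxcl16 in endothelial-like cells was 0.28 and -0.41. Cxcl10 in myofibroblast-like cells was 1.03, or 0.26 with a doubled UMI minimum, and -4.27, the latter from 12 control and 2 mutant UMIs. The differences between the pairs were not tested, since each library stands alone.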

How the results depend on the processing

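No paired analysis was possible because each group has 1 library and the labels give no replicate numbers. Of 361 values recomputed for the 57 ratios past 2-fold, 5 changed sign and 29, from 20 ratios, came within 2-fold. Of 484 values for the 73 ratios within 2-fold, 28 changed sign and 28 passed 2-fold. The 5 ratios past 2-fold that changed sign were, with Leiden clusters, Ccl2 in astrocyte-like cells (0.84), Cxcl2 in Bdnf matrix fibroblast-like cells (0.53), Cxcl1 in Bdnf smooth muscle-like cells (1.42) and Ccl3 in Hgf endothelial-like cells (-0.42), and, without the top 1% of cells, Ccl4 in Bdnf AT2-like cells (0.14). Ratios within 2-fold that changed sign and passed 2-fold the other way were Ccl4 in pericyte-like (1.83) and Ccl12 in astrocyte-like cortex cells (1.43) and Cxcl1 in Hgf pericyte-like cells (-1.08) with Leiden clusters, and Ccl3 (3.75) and Ccl4 (3.54) in Hgf AT2-like cells with the gate raised by 1 marker. Ccl3 in cortex endothelial-like cells, at -0.65, was 0.23 with Leiden clusters. The cause was not tested. The count of higher chemokines in microglia-like cells was 5 under every alternative, though in the shallower cells Cxcl10 was not among them and Cxcl1 was, and the log2 ratios ranged over all alternatives from 1.58 to 1.87 for Ccl12, 1.72 to 2.46 for Cxcl2, 0.79 to 1.59 for Cxcl10, 1.58 to 1.80 for Cxcl16 and 3.27 to 5.43 for Ccl5. Calls lost under at least 1 alternative were, in the cortex, Ccl7 and Cxcl10 in fibroblast-like and Ccl2 in astrocyte-like cells, in the Bdnf lungs Ccl4 in AT2-like and Cxcl1 in smooth muscle-like cells, and in the Hgf lungs Ccl4 in endothelial-like, Ccl2 and Cxcl10 in matrix fibroblast-like and Cxcl1 and Cxcl16 in myofibroblast-like cells, besides those named with the results. Counts in the lung were less steady. In Bdnf endothelial-like cells 1 was lower without the top 1% of cells, in place of 3, and it was another gene, Ccl7 (9 and 4 UMIs). In Bdnf matrix fibroblast-like cells 1 was lower with Leiden clusters and 2 with at least 30 UMIs, in place of 4. In Hgf endothelial-like cells 1 was higher and 2 lower with Leiden clusters, and 0 in either direction without the top 1% of cells, in place of 3 and 1. In Hgf matrix fibroblast-like cells 1 was lower with at least 30 UMIs, in place of 3. Where a chemokine had under 10 UMIs, no ratio was given, and a difference was not detectable at this depth.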
